A study of Mus musculus with 6 samples.

Results

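The genes described are 10 markers of neural progenitors, Sox1, Sox3, Pax6, Nes, Hes5, Neurog1, Neurog2, Olig2, Fabp7 and Nkx6-1, taken by symbol out of the 19938 genes measured. The set has been called neural progenitor transcription factors, but Nes encodes a cytoskeletal filament protein and Fabp7 a fatty acid binding protein. All 10 were found on the arrays, each through 1 probe set that names a single gene. RNA came from embryoid bodies (EBs), floating aggregates of the R1 mouse embryonic stem cell line, an established wild-type line. The cells had been plated at 35000 per ml without leukaemia inhibitory factor, and 4-day-old EBs received 2 μM retinoic acid (RA). Samples were taken on the day of RA addition (day 0, without RA) and after 3 and 4 days in RA (day 3 and day 4), with 2 arrays for each day. No untreated EBs of matching age were analysed here, and the effect of RA cannot be told apart from that of time. The study describes its day 0 and day 4 RNA for sequencing as biological replicates, but neither it nor the labels say whether the 2 arrays of a day came from separate cultures. The p-values measure only how far these arrays spread, possibly for technical reasons.

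Neural progenitors are the dividing cells of the early neural plate and neural tube. Factors of the SoxB1 group hold them in the progenitor state, Notch signalling through Hes genes delays their exit from it, proneural factors of the basic helix-loop-helix (bHLH) class start neuron formation, and homeodomain and Olig factors assign position along the dorsoventral axis. RA is widely used to direct EBs towards neural fates and also patterns the hindbrain and spinal cord.

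Values are log2 intensities after Robust Multichip Average (RMA), so a difference of 1 is a doubling. Apart from the sums of marker lists, the level of a probe set is compared only with itself on other arrays. Those sums add different probe sets, so bright probe sets weigh most in them. A gene was called changed at an adjusted p of 0.05 or below in limma, with adjustment over all 19938 genes. The array medians over all probe sets lay between 6.69 and 6.85, and the 2 arrays of every day had a Pearson correlation of 0.999 across genes, which are no independent replicates. Each array was also centred on its median over the 19938 genes, not over all probe sets. The median change of all genes against day 0 was then -0.15 at day 4, in place of 0.00. At day 3 it was -0.15, in place of -0.05. The small differences of Sox1 and Hes5 at day 4 and of Neurog2 at day 3 changed sign. In a mixed culture, fewer cells of a type and less RNA per cell cannot be told apart.

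**Figure D1:**
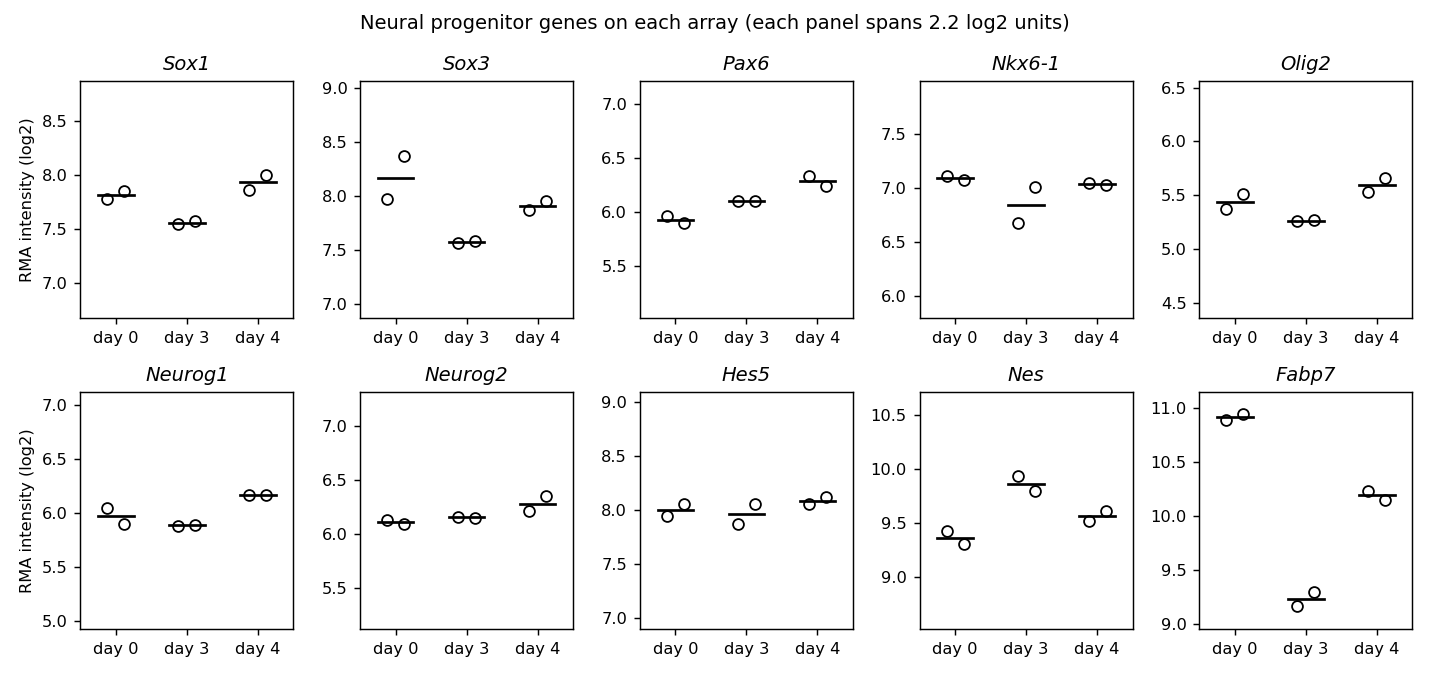
RMA intensity (log2, vertical axis) of the 10 genes at day 0, day 3 and day 4 (horizontal axis), with a circle for each of the 2 arrays of a day and a bar for their mean; each panel spans the same number of log2 units. Fabp7 dropped to 9.23 at day 3 and stood at 10.19 at day 4, Nes was highest at day 3, and the other genes moved by 0.60 or less between any pair of days.

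Fabp7 encodes the brain fatty acid binding protein of radial glia, the progenitors that span the neural tube wall, and it changed more than any other member. Its arrays read 10.89 and 10.94 at day 0, 9.16 and 9.29 at day 3, then 10.23 and 10.15 at day 4. Both day 3 arrays lay far below the other 4, and the day 4 arrays lay between those of the other days with no overlap. At day 3 Fabp7 averaged 9.23 ± 0.09, against 10.92 ± 0.04 at day 0 (SD, n = 2 each), a log2 change of -1.69 (SE 0.07, adjusted p = 1.17e-06 in limma) or 3.23-fold lower. From day 3 it rose by 0.96 at day 4 (SE 0.07, adjusted p = 2.71e-04), a 1.95-fold difference. At day 4 it was still 0.73 below day 0 on the log2 scale (log2 change -0.73, SE 0.07, adjusted p = 5.94e-05). Only 3.34% of all genes changed by more than Fabp7, in either direction, between day 3 and day 0, and 0.888% between day 4 and day 3.

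Nes encodes nestin, the intermediate filament protein of neural stem cells, which muscle precursors and other dividing cells also make, and it ran the opposite way. Its arrays read 9.42 and 9.30 at day 0, 9.93 and 9.79 at day 3, then 9.52 and 9.61 at day 4. The 3 days did not overlap, and day 3 was the highest. Nes rose by 0.50 at day 3 against day 0 (SE 0.07, adjusted p = 9.64e-04), a 1.41-fold difference. It then fell at day 4 against day 3 (log2 change -0.29, SE 0.07, adjusted p = 0.0255). Its difference at day 4 against day 0, 0.20 with a 95% interval of 0.03 to 0.38, did not pass (adjusted p = 0.0544). The fall from day 3 was not called without day 3 replicate 1 or without either day 4 array, where the highest adjusted p was 0.140.

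Sox1 and Sox3 encode SoxB1 factors, which keep neural cells in the progenitor state, and both were lowest at day 3. Sox1, among the earliest markers of neural commitment in the mouse, read 7.78 and 7.85 at day 0, 7.54 and 7.57 at day 3, then 7.86 and 8.00 at day 4. The day 3 arrays lay below all others, and the day 4 arrays lay just above those of day 0. Sox1 fell by 0.26 on the log2 scale at day 3 against day 0 (log2 change -0.26, SE 0.06, adjusted p = 0.0117) and rose by 0.37 at day 4 against day 3 (SE 0.06, adjusted p = 0.00608). The fall was not called without day 0 replicate 2 or without day 3 replicate 1, with adjusted p-values up to 0.0658, and the rise was called under every one of the 14 alternative settings. At day 4 Sox1 differed from day 0 by 0.12 (95% interval -0.03 to 0.27, adjusted p = 0.173), and by -0.03 after median centring.

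Sox3, on the X chromosome, read 7.97 and 8.37 at day 0, 7.56 and 7.58 at day 3, then 7.87 and 7.95 at day 4. Its arrays at day 0 stood furthest apart among all members and days, while those of day 3 nearly coincided. Sox3 fell at day 3 against day 0 (log2 change -0.60, SE 0.12, adjusted p = 0.00451), a 1.51-fold difference, and the change was -0.39 without day 0 replicate 2 and still called. The difference between day 4 and day 3 was 0.34 (95% interval 0.05 to 0.62) and did not pass (adjusted p = 0.0778). It was called under the intensity trend (adjusted p = 0.0265). With the 2 days alone, which leaving out either day 0 array repeats, the difference was also called (adjusted p = 0.0107). That between day 4 and day 0 was -0.26 (95% interval -0.54 to 0.02) and did not pass either (adjusted p = 0.116), and it ranged from -0.46 without day 0 replicate 1, where it was called, to -0.06 without day 0 replicate 2. It was also called after median centring (-0.41, adjusted p = 0.0295). Sox2, the SoxB1 factor shared by stem cells and neural progenitors, stood at 9.30 at day 0, 7.42 at day 3 and 7.02 at day 4, and fell by 2.28 on the log2 scale at day 4 against day 0 (log2 change -2.28, adjusted p = 2.80e-05).

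Pax6 encodes a paired homeodomain factor of the ventral spinal cord, the forebrain and the eye. It was the only member called higher in all 3 comparisons. Its arrays read 5.96 and 5.90 at day 0, 6.10 and 6.10 at day 3, then 6.33 and 6.24 at day 4. No day overlapped another, and the whole course spanned 0.36 log2 units near the dim end of the scale, where RMA understates changes. At day 4 Pax6 averaged 6.29 ± 0.06, against 5.93 ± 0.04 at day 0 (SD, n = 2 each), a 1.28-fold difference (log2 change 0.36, SE 0.06, adjusted p = 0.00127). This rise was called under each of the 14 alternative settings, at 0.21 to 0.40. The steps to day 3 (0.17, adjusted p = 0.0397) and from day 3 to day 4 (0.19, adjusted p = 0.0481) passed narrowly. The first was not called without any 1 of the day 0 or day 3 arrays, with adjusted p-values up to 0.164, and the second was not called whichever array was left out, with adjusted p-values up to 0.182.

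Nkx6-1, a homeodomain factor of ventral neural progenitors that pancreatic beta cells also use, passed in no comparison. It read 7.11 and 7.08 at day 0, 6.68 and 7.01 at day 3, then 7.05 and 7.03 at day 4. The day 3 arrays had an SD of 0.23, and only day 3 replicate 1 was clearly low. The change at day 3 against day 0 was -0.25 (95% interval -0.49 to -0.01, adjusted p = 0.0760), and it was -0.42 and called without day 3 replicate 2 but -0.09 without day 3 replicate 1. After median centring, with all arrays, it was -0.35 and called (adjusted p = 0.0204). Olig2, the bHLH factor of motor neuron and oligodendrocyte progenitors, read 5.37 and 5.51 at day 0, 5.26 and 5.27 at day 3, then 5.53 and 5.66 at day 4. With a mean of 5.43 and an SD of 0.16 over the 6 arrays it lay within the limits the study set for undetectable genes (mean below 6, SD below 0.3), as did 6023 of 19938 genes (30.2%). Olig2 nevertheless rose by 0.33 at day 4 against day 3 (SE 0.07, adjusted p = 0.0152), with both day 4 arrays above both day 3 arrays. The call was not made when any 1 of 3 arrays was left out, day 3 replicate 1, day 3 replicate 2 or day 4 replicate 2.

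Neurog1 and Neurog2 encode neurogenins, the proneural factors that commit progenitors to the neuronal fate, and both lay close to 6, the intensity below which the study could call a gene undetectable. Neurog1 read 6.05 and 5.90 at day 0, 5.88 and 5.89 at day 3, then 6.17 and 6.17 at day 4. The day 4 arrays were the highest, while the day 0 and day 3 arrays lay side by side. Neurog1 rose by 0.28 at day 4 against day 3 (SE 0.06, adjusted p = 0.0166) and by 0.19 against day 0 (SE 0.06, adjusted p = 0.0381). The rise against day 0 was 0.04 with an adjusted p of 0.524 after median centring, and it was called without day 0 replicate 1 but not without any of the other 5 arrays. The rise against day 3 was not called without any 1 of the day 3 or day 4 arrays, with adjusted p-values up to 0.0831. Neurog2 read 6.13 and 6.09 at day 0, 6.16 and 6.15 at day 3, then 6.21 and 6.35 at day 4. Its day 4 arrays were again the highest, but the difference from day 0, 0.17 with a 95% interval of 0.02 to 0.32, did not pass (adjusted p = 0.0564).

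Hes5 encodes a repressor that Notch signalling induces in neural progenitors, and its levels were the steadiest of the set. It read 7.94 and 8.05 at day 0, 7.87 and 8.05 at day 3, then 8.05 and 8.12 at day 4. The arrays of the 3 days overlapped. The differences were -0.04 at day 3 (95% interval -0.22 to 0.15, adjusted p = 0.731) and 0.09 at day 4 (95% interval -0.10 to 0.28, adjusted p = 0.387), both against day 0. At day 4 against day 3 the difference was 0.13 (95% interval -0.06 to 0.32, adjusted p = 0.268). These intervals leave room for changes of up to 0.32 log2 units.

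**Figure D2:**
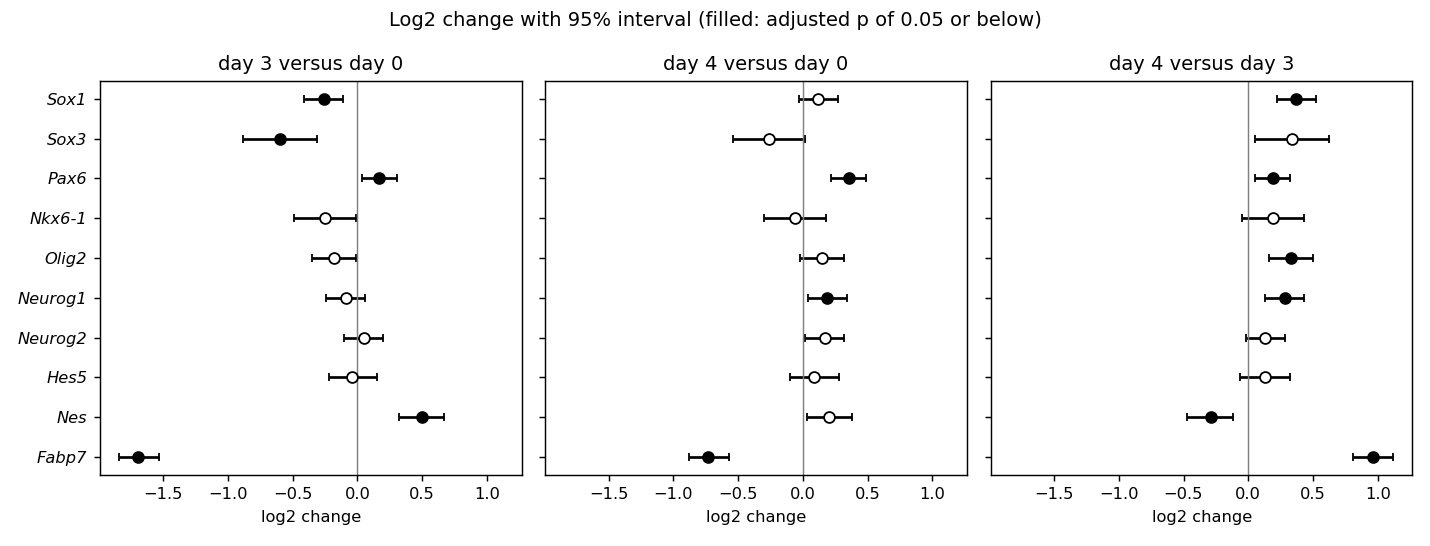
Log2 change (horizontal axis) of the 10 genes with its 95% interval in the 3 comparisons; filled points passed at an adjusted p of 0.05 or below and open points did not. Fabp7 lies apart at -1.69 for day 3 versus day 0, and every gene but Fabp7 stays between -0.60 and 0.50.

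The promoters of Fabp7 and Sox1, the pair called lower at day 3 and higher again at day 4, are shown beside those of Nes, which ran the opposite way, and Hes5, which was steady. RefSeq promoters (GRCm38.p6, 250 bases before to 50 bases after the start) matched 9 of the 10 members, and Sox3 was not matched. Capitals mark 4 motifs searched on both strands, the retinoid receptor hexamer AGGTCA, the RBPJ site TTCCCA, through which Notch acts, the E-box CAGCTG of bHLH factors and the Sox site ACAAAG. All sequences run 5′ to 3′ on the strand of the gene.
Fabp7 promoter, chr10:57784673-57784972, plus strand: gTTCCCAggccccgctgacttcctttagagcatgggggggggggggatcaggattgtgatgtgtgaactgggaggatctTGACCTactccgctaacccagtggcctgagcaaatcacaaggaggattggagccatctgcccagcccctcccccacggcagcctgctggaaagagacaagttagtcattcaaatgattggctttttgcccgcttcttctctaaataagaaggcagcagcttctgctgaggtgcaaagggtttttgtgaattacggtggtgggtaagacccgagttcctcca
Sox1 promoter, chr8:12395269-12395568, plus strand: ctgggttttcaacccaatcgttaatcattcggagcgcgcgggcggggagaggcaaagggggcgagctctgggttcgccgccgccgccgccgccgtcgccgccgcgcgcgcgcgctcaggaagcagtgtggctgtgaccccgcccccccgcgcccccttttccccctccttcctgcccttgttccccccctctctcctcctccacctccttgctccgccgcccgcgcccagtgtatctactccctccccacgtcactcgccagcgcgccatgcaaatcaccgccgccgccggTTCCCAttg
Nes promoter, chr3:87970843-87971142, plus strand: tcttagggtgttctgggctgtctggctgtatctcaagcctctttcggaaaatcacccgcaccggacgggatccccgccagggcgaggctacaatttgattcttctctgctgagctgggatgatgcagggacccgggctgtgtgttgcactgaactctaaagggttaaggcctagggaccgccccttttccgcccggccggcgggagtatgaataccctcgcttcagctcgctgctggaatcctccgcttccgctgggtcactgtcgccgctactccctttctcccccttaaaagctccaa
Hes5 promoter, chr4:154960673-154960972, plus strand: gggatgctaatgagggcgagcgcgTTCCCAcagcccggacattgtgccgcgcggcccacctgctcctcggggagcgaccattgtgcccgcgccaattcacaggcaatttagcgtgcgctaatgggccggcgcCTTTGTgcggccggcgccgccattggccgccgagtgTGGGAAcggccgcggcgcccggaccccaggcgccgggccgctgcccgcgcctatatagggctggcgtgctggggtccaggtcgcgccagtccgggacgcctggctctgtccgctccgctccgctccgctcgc

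The Fabp7 promoter held AGGTCA as its reverse complement at position -171 and TTCCCA at -249, counted from the start of the gene. The Sox1 promoter held TTCCCA at 42 and none of the other motifs. The Hes5 promoter held TTCCCA at -226 and, as its reverse complement, at -82, and the reverse complement of ACAAAG at -118. The Nes promoter held none of the 4. Among the other members, Neurog1 held the reverse complement of AGGTCA at -111 and the downstream of 2 Pax6 promoters held ACAAAG at -154, and no motif overlapped another. Of all 32851 promoters of this length, 16.3% held AGGTCA, 25.6% TTCCCA, 16.3% CAGCTG and 18.7% ACAAAG on either strand. Such matches are a description of these windows only.

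The typical size of change of the members between day 4 and day 0 was close to that of all genes. Pax6 and Neurog1 rose, Fabp7 fell and 7 of 10 did not pass, where 51.5% of all genes were called, 25.9% higher and 25.6% lower. The median member changed by 0.14, against 0.00 for all genes, and the median size of change, whatever its direction, was 0.18 for the members and 0.21 for all genes. The arrays of day 4 and day 0 did not overlap for 9 of the 10, and 73.0% of all genes were separated in this way. When only genes averaging at least 6 were tested, 5 of the 9 members left were called, with Nes and Neurog2 added, and 71.4% of the genes tested were called.

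Between day 3 and day 0, Pax6 and Nes rose, Sox1, Sox3 and Fabp7 fell, and 5 of 10 did not pass, where 51.9% of all genes were called, 23.8% higher and 28.1% lower. The arrays of day 3 and day 0 did not overlap for 9 of the 10, and for 75.4% of all genes. The median member changed by -0.13, against -0.05 for all genes, and the median size was 0.21 in both. The count of 5 was 3 without day 0 replicate 2 and also without day 3 replicate 1, when Sox1 and Pax6 were not called and the calls over all genes numbered 8928 and 8741. After median centring the count was 7, with Neurog1, Nkx6-1 and Olig2 called lower and Pax6 not called, and 62.1% of all genes were called.

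Between day 4 and day 3, Sox1, Pax6, Neurog1, Olig2 and Fabp7 rose, Nes fell and 4 of 10 did not pass, where 28.1% of all genes were called, 15.8% higher and 12.2% lower. The median member changed by 0.24, against 0.05 for all genes, and the median size of change was 0.29 for the members and 0.13 for all genes. For 8 of the 10 both day 4 arrays lay above both day 3 arrays, for Nes both lay below, and for Hes5 they overlapped, where 66.5% of all genes did not overlap. The count of 6 was 2 without day 3 replicate 1 or day 4 replicate 2 (Fabp7 and Sox1), 3 without day 4 replicate 1 and 4 without day 3 replicate 2, where Nkx6-1 was called and Pax6, Neurog1 and Olig2 were not. Over all genes the 5593 calls fell to 2728 without day 3 replicate 1, 3650 without day 3 replicate 2 and 3005 without day 4 replicate 2.

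**Figure D3:**
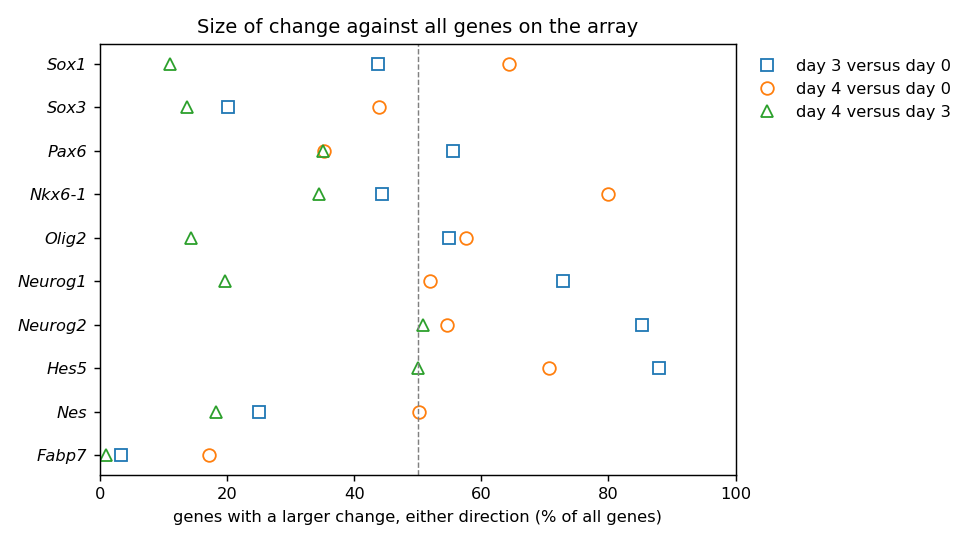
Share of all 19938 genes (horizontal axis, %) whose log2 change was larger in size than that of each of the 10 genes (rows), with a symbol for each comparison and a dashed line at 50%. Fabp7 lies furthest left in all 3 comparisons (3.34%, 17.1% and 0.888%), and most triangles, for day 4 versus day 3, lie left of the circles for day 4 versus day 0.

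The day 3 mean was the lowest of the 3 for 7 members (Sox1, Sox3, Hes5, Neurog1, Olig2, Fabp7 and Nkx6-1), and this held for 39.7% of all genes. Both day 3 arrays lay below the other 4 for 6 of these, all but Hes5, against 21.1% of all genes. A called fall to day 3 followed by a called rise to day 4 was found for Sox1 and Fabp7, that is 2 of 10, and for 5.76% of all genes. The opposite course was found for Nes and for 5.55% of all genes. Both steps share the day 3 arrays, so a deviation of those arrays enters both. The most alike members were Sox1 and Olig2, with a root mean square distance of 0.04 log2 units between centred values over the 6 arrays. Nes and Fabp7 were the least alike (0.90). The distance is not scaled, so members that move little lie close to one another. Olig2 was also within the study's limits for undetectable genes.

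The genes most like a member were taken for the 2 whose day means spanned at least 0.5, Fabp7 and Sox3, and Nes, with a span of 0.495, was just under that limit. For Fabp7 they were the amino acid transporter gene Slc7a8 (distance 0.06), the stress response gene Gadd45b (0.07) and Snai1 (0.13), a repressor of epithelial genes. The mean level of Slc7a8 was 8.79 (day 0), 7.02 (day 3) and 8.10 (day 4), and that of Gadd45b was 9.01, 7.37 and 8.43 on the same days. For Sox3 they were the linker histone gene H1f6 (0.05), the cytokine gene Tnf (0.06) and Cnnm1 (0.06). H1f6 and Cnnm1 had day means between 5.41 and 6.26, and Tnf between 6.18 and 6.74. In each of the 3, as in Sox3, day 0 replicate 2 lay above day 0 replicate 1. The choice by distance over all arrays, both day 0 arrays included, brings this shared gap about.

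**Figure D4:**
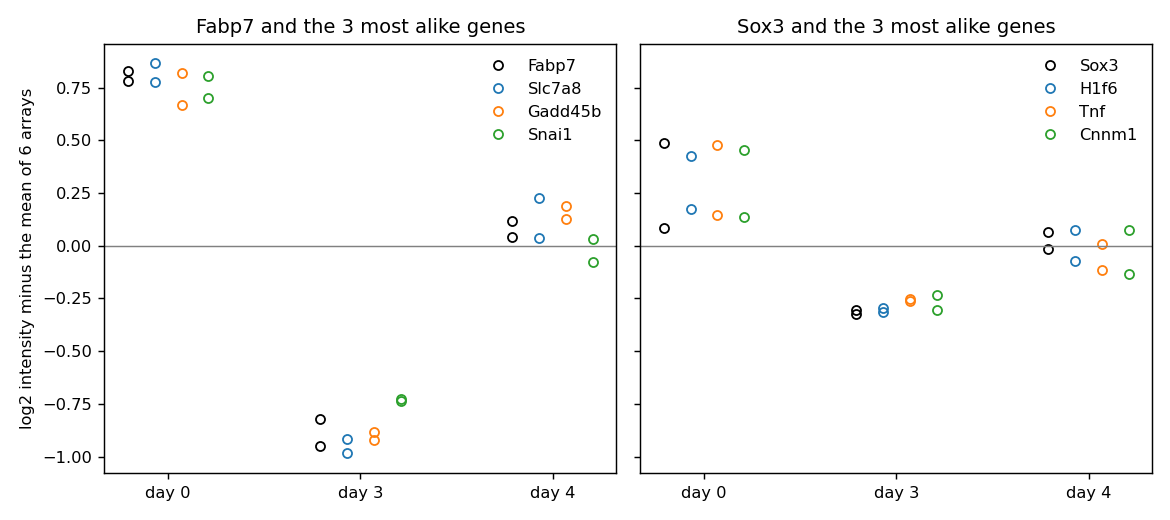
Log2 intensity minus the mean of the 6 arrays (vertical axis) at day 0, day 3 and day 4 for Fabp7 and Sox3 (black) and the 3 genes most like each (colours), with a circle for each array. The Fabp7 group drops at day 3 and stands near 0 at day 4, and in the Sox3 group day 0 replicate 2 lies above day 0 replicate 1 for every gene. The genes were chosen for likeness over these same arrays, so the shared courses follow from the choice.

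Other genes of the progenitor pathways were read from lists of 72 genes, of which 70 were measured. At day 4 against day 0, 18 of the 70 rose, 15 fell and 37 did not pass, so 47.1% were called, where the share of all genes was 51.5%, and their median change was 0.02. Between day 4 and day 3, 16 rose and 10 fell (37.1% called, against 28.1% of all genes). A called fall to day 3 with a called rise to day 4 was found for 9 of the 70 (12.9%, against 5.76% of all genes), Sox14, Hes6, Hey2, Lfng, Id1, Dbx2, Msx1, Nr2e1 and Zic1. The opposite called course was found for 6 of the 70, Sox11, Irx3, Irx5, Lhx1, Cdh2 and Gli3, and for 5.55% of all genes.

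Among 6 further Sox genes, Sox9 (log2 change 1.33), Sox4 (0.89) and Sox11 (0.66) rose at day 4 against day 0 and Sox2 fell. Sox9, which neural progenitors share with cartilage and other tissues, stood at 9.13 at day 0, 10.42 at day 3 and 10.46 at day 4. Of 17 Notch genes, 5 rose, 8 fell and 4 did not pass. The ligand gene Dll4 (2.06) and the effector genes Hey1 (1.59) and Heyl (1.13), which vessels also use, rose. The ligand gene Dll3 (-2.55), the effector gene Hey2 (-2.12) and the receptor gene Notch1 (-1.77) fell, while Hes6 (0.04, adjusted p = 0.532) and Hes3 (-0.10, adjusted p = 0.524) did not pass. Hes1, the Notch effector that most tissues share, fell (-0.71, adjusted p = 7.04e-05), while Hes5 did not pass.

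Of 9 measured bHLH and Id genes, Id3 (1.06) and Id2 (1.02), inhibitors of bHLH factors, rose and the neuronal differentiation gene Neurod1 fell (-0.41). Neurod1 stood at 5.02 at day 0, 4.63 at day 3 and 4.61 at day 4, below 6 on every day. Neurog3 (0.01, adjusted p = 0.938) and Atoh1 (-0.10, adjusted p = 0.486) did not pass. Of 23 measured genes of spinal cord and hindbrain patterning, 3 rose, 3 fell and 17 did not pass, with a median of 0.00. Hoxb4 (2.50), the ventral signal gene Shh (0.72) and Irx5 (0.63) rose, and Msx1 (-2.63), the motor neuron gene Isl1 (-0.76) and Nkx2-9 (-0.62) fell. Pax3 (-0.03, adjusted p = 0.774) and Pax7 (-0.02, adjusted p = 0.890), which mark dorsal progenitors, did not pass. Of 15 radial glia, cytoskeleton and stem cell genes, 5 rose, led by the adhesion gene Ncam1 (2.40), the glutamate transporter gene Slc1a3 (1.01) and the phosphatase gene Ptprz1 (0.75). The epithelial cadherin gene Cdh1 (-2.25) and the filament gene Vim (-0.33) fell, and Gfap (-0.06, adjusted p = 0.377) and Fabp5 (0.05, adjusted p = 0.437) were among the 8 that did not pass.

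The label calls all samples embryonic stem cells, yet 9 of 10 stem cell markers fell at day 4 against day 0 and 10 of 10 at day 3. Pou5f1, which encodes the core stem cell factor Oct4, stood at 10.24 at day 0, 6.16 at day 3 and 6.15 at day 4. Summed intensities of the stem cell list were 7319 to 7500 at day 0, 1185 to 1272 at day 3 and 1136 to 1345 at day 4. The blood and endothelium list peaked at day 3, with 5615 to 5865 at day 0, 24060 to 26309 at day 3 and 9060 to 9980 at day 4, and at day 3 against day 0 5 of its 8 genes rose and 2, Tal1 (-1.04) and Kdr (-0.94), fell. Most of the day 3 sum came from Hbb-bh1, Hbb-y and Hba-x, globin genes of the embryo, which summed to 745 to 921 at day 0, 19526 to 21966 at day 3 and 5367 to 6260 at day 4. The other 5 genes summed to 4870 to 4944 at day 0, 4343 to 4533 at day 3 and 3693 to 3720 at day 4. The neuron list had its lowest sum at day 3, with 4484 to 4640 at day 0, 2571 to 2624 at day 3 and 3546 to 3852 at day 4, and at day 3 against day 0 8 of its 14 genes fell and 3, Dcx (2.49), Syt1 (1.32) and Rbfox3 (1.25), rose. The difference between day 4 and day 3 lay mostly in Stmn2 and Nefl, without which the sums were 2308 to 2399 at day 0, 1816 to 1847 at day 3 and 1915 to 1952 at day 4. These splits of the lists were made after their values were seen. The 6 measured glial markers summed to 493 to 533 at day 0, 393 to 395 at day 3 and 398 to 407 at day 4. At day 4 against day 0, Aldh1l1 (-1.47) fell and 5 did not pass, with a median change of 0.00. Aldh1l1 stood at 7.46 at day 0, 6.06 at day 3 and 5.99 at day 4. Gfap, Aqp4 and S100b averaged below 6 on every day. The sums of the mesoderm, endoderm and neural crest lists were higher at day 3 and day 4 than at day 0. At day 4 against day 0, 7 of 9 mesoderm and mesenchyme genes rose and 2, Mesp1 (-2.49) and Col1a1 (-0.16), fell. Of 6 neural crest genes, 4 rose, Ednrb (3.16), Snai2 (1.16), Twist1 (1.15) and Foxd3 (0.22), Tfap2a (-1.22) fell and Sox10 (0.06) did not pass. Twist1 is also on the mesoderm list. Of 7 endoderm genes, 5 rose, and Sox17 (-0.22) and Foxa2 (0.32) did not pass. Most of the endoderm sum came from Gata6 (12.80 at day 4) and Gata4 (11.46). The part of these shifts in the members' values was not tested.

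**Figure D5:**
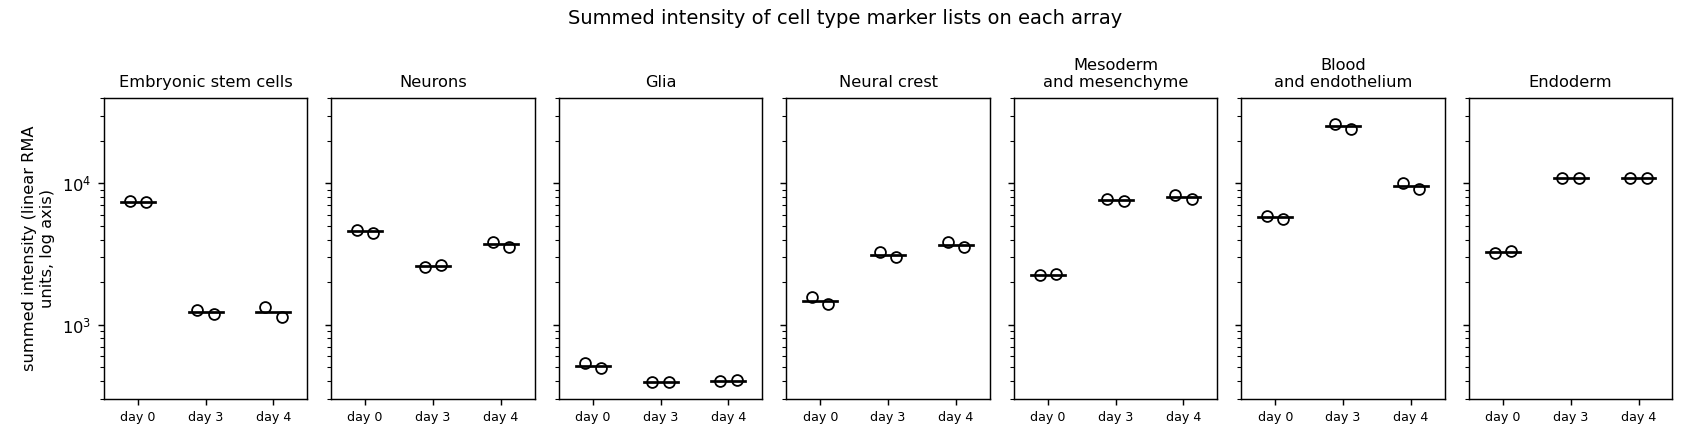
Summed linear RMA intensity (log axis) of 7 marker lists at day 0, day 3 and day 4, with a circle for each array and a bar for the mean of the 2. The stem cell list stays at or below 1345 at day 3 and day 4, the blood and endothelium list peaks at day 3 with 24060 and 26309, and the neuron list is lowest at day 3.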

How the data were processed

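Each of 6 RNA samples was run on a single-colour Affymetrix array (Mouse Gene 1.0 ST). As deposited, the values are log2 intensities, which the authors computed with RMA in Partek; RMA corrects background, quantile normalizes the arrays and summarises each probe set. The software version and genome build for the arrays are not given in the sources used here. Quantile normalization hides changes of total RNA, and RMA understates changes of dim genes.

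Of 35557 probe sets, 21789 had a single gene symbol in the platform annotation, 1621 had several and were not used, and 12147 were unnamed here. The brightest probe set per gene gave 19938 genes. Day means were fitted over all 6 arrays with limma 3.58.1 in R 4.3.3 (lmFit and eBayes, 3 residual and 4.07 prior degrees of freedom, two-sided, Benjamini-Hochberg adjustment), and the 95% intervals are unadjusted. The fit was tested on simulated data. The number of arrays limits the precision, since intensities carry no read depth.

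Groups came from the sample titles. All members are named. Likeness was the root mean square distance of centred values over the 6 arrays, for members spanning at least 0.5, skipping predicted genes and the olfactory and vomeronasal receptor families. From each list up to 3 genes each way that passed at day 4 against day 0 and up to 2 that did not are named. Others, such as Hes1 and the genes lowest at day 3, were chosen after their values were seen. The members and lists were chosen with earlier results of these data known. Alternatives were a replicate block, median centring, cyclic loess and an intensity trend with robust moderation. Also used were the 2 days alone, a filter on dim genes, other probe set rules and leaving out each array. Leaving out an array of the day not compared repeats the fit of the 2 days alone. The RefSeq tables of GRCm38.p6 served for names and promoters.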

Additional observations from a re-analysis of the deposited data

Results flagged for a closer look

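For 6 members the change by day 4 differed from the change by day 3, both against the same day 0 arrays, which is the test of day 4 against day 3. The difference was 0.96 log2 units for Fabp7 (adjusted p = 2.71e-04 in limma), 0.37 for Sox1 (adjusted p = 0.00608), 0.33 for Olig2 (adjusted p = 0.0152), 0.28 for Neurog1 (adjusted p = 0.0166), 0.19 for Pax6 (adjusted p = 0.0481) and -0.29 for Nes (adjusted p = 0.0255). In each of the 6, which were picked by their calls, the arrays of day 4 and day 3 did not overlap. Between these days 28.1% of all genes were called and 66.5% did not overlap. Fabp7 and Sox1 passed under every one of the 14 alternatives, Nes under 11, Olig2 under 10 of 13, Neurog1 under 9 and Pax6 under 3. Leaving out either day 0 array repeats the fit of the 2 days alone, so these counts hold that fit more than once.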

How the results depend on the processing

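Of 417 values of the 10 members under 14 alternatives, 356 kept their direction and their side of the threshold. A further 39 were no longer called, 17 became called and 5 changed sign, none of these 5 called in either setting. Some of the 417 are repeats, since leaving out an array of the day not compared gives the fit of the 2 days alone. After median centring the day 4 versus day 0 change was -0.05 for Hes5 and -0.03 for Sox1, and the day 3 versus day 0 change of Neurog2 was -0.05. The day 3 versus day 0 change of Hes5 was 0.02 without day 0 replicate 2 and 0.06 without day 3 replicate 1, and ranged from -0.13 to 0.06 over the arrays left out. The cause of these changes was not tested. The filter on dim genes, which tested 13684 genes and left out Olig2, called 5 members at day 4 versus day 0 in place of 3. Leaving out 1 array gave 2 to 4 called members for day 4 versus day 0 (9073 to 9973 of all genes), 3 to 5 for day 3 versus day 0 (8741 to 10212 of all genes) and 2 to 6 for day 4 versus day 3 (2728 to 5276 of all genes). Median centring turned the share of rises among all called genes to 30.7% where it was 50.2% at day 4 versus day 0, to 31.4% where it was 45.9% at day 3 versus day 0 and to 42.4% where it was 56.4% at day 4 versus day 3. Deviations of same-numbered arrays from their day means correlated at 0.03 to 0.08 between days. They shared little deviation, which cannot tell whether same-numbered arrays came from the same culture. With a replicate block 3 members were called at day 4 versus day 0, 5 at day 3 versus day 0 and 5 at day 4 versus day 3, where the call of Pax6 was lost, and 10251, 10359 and 5469 of all genes. Each member had 1 usable probe set, so the rules for several probe sets could change only the adjustment. Olig2, Neurog1, Pax6 and Neurog2 lay near or below 6, where changes are understated.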

Other observations

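Of the 14 neuron markers, 2 had a called fall to day 3 and a called rise to day 4, Stmn2 and Nefl, as did 5.76% of all genes. Stmn2 encodes a microtubule regulator of growing neurites. It stood at 10.63 at day 0, 8.78 at day 3 and 10.21 at day 4, a fall at day 3 (log2 change -1.84 against day 0, adjusted p = 1.22e-06 in limma) followed by a rise of 1.43 at day 4 against day 3 (adjusted p = 1.23e-04). The neurofilament gene Nefl stood at 9.28, 8.35 and 9.17 on these days, and both steps passed (adjusted p = 7.73e-04 and 0.00524). Dcx, which encodes doublecortin of migrating neurons, ran the other way, at 6.20, 8.69 and 8.19. Rbfox3 (log2 change 1.25) and Syt1 (1.32) rose at day 3 against day 0, and at day 4 against day 3 Syt1 rose again (0.37) while Rbfox3 differed by 0.38 and did not pass. Ina (9.87, 7.06 and 7.10) and Gap43 (8.35, 7.04 and 7.23), of neuronal filaments and growth cones, fell at day 3, and their differences between day 4 and day 3 did not pass. These genes were chosen after their values were seen.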
